A study of Mus musculus with 20 samples.

Results

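Mast3, Gm41414, Tnfrsf21 and Bhlhe40 are 4 of the 32285 genes counted in single nuclei of the mouse hippocampus. They were chosen because their levels were lower under isoflurane than in wakefulness in CA1 excitatory neurons of these same mice, so the CA1 values of that comparison are a description here and carry no test. The question asked of them was which other cells of the hippocampus share the fall. For this, the raw counts of unique molecular identifiers (UMIs) were summed per mouse and per cell class in all 20 libraries, 1 library per mouse, and compared between mice.

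The mice were males aged 4.5 to 5.5 months. They were either APP/PS1 mice, which carry the APPSwe and PS1ΔE9 transgenes driven by the Prnp (prion protein) promoter and model familial Alzheimer's disease, or wild-type (WT) littermates. Awake mice numbered 6 WT and 3 APP/PS1. Isoflurane was given for 3 h to 3 WT and 4 APP/PS1 mice, at 5% at the start and 1.5% thereafter. Ketamine (150 mg/kg) with xylazine (12 mg/kg) was given to 2 WT and 2 APP/PS1 mice, also for 3 h. These groups are those of the labels. The group sizes in the design text and in the study differ from them, and which mice this concerns is not known. Each mouse is named by its number in the labels. All 4 ketamine mice fall in the run of numbers from 25 to 29, in which the awake mouse 29 is the only other, so drug and number run can hardly be told apart.

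Mast3 encodes a microtubule-associated serine/threonine kinase that phosphorylates small regulators of protein phosphatase PP2A. Tnfrsf21 encodes a death-domain receptor of the TNF receptor superfamily, known for roles in axon pruning and cell death and reported to bind amyloid precursor protein. Bhlhe40 encodes a basic helix-loop-helix repressor that binds E-boxes, takes part in the circadian clock and responds to many stimuli. Gm41414 is a predicted gene without a coding sequence. Volatile anesthetics such as isoflurane lower the firing of hippocampal neurons in wild-type mice, while ketamine blocks NMDA receptors. The study reported that anesthesia lowered CA1 activity in WT but not in APP/PS1 mice.

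In the GRCm38 annotation, Mast3 lies at chr8:70778117-70805054 on the minus strand and is protein-coding with 11 transcripts. Gm41414 lies at chr16:5306801-5450664 on the plus strand as a long intergenic noncoding RNA with 1 transcript. Tnfrsf21 spans chr17:43016555-43089189 on the plus strand and Bhlhe40 spans chr6:108660629-108666925, also on the plus strand. Each level is a count over the whole gene and is not tied to an exon. RefSeq promoter windows of 300 bases (250 before and 50 after a start, GRCm38.p6) were at hand for 3 of the 4 genes. They are shown because the 4 genes were lower together in CA1, with capitals marking the letters of motifs searched on both strands: CACGTG (the E-box), TGACGTCA and TGACG (CREB sites, the shorter contained in the longer), TGACTCA (AP-1) and GTGGGCG (EGR). The windows are those of Mast3 (chr8:70792384-70792683, minus strand), Gm41414 (chr16:5306588-5306887, plus strand) and Tnfrsf21 (chr17:43016305-43016604, plus strand).
Mast3: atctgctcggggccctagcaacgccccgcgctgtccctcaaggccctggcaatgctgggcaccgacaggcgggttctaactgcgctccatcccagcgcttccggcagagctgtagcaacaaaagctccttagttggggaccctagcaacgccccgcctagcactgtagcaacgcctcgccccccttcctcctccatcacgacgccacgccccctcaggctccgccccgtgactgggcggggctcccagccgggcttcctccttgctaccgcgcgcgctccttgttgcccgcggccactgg
Gm41414: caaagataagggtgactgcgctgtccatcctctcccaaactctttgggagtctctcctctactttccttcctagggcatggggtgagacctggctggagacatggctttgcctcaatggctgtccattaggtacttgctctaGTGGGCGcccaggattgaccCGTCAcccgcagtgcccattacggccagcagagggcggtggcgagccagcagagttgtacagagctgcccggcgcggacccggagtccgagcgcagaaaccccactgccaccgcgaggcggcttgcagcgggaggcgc
Tnfrsf21: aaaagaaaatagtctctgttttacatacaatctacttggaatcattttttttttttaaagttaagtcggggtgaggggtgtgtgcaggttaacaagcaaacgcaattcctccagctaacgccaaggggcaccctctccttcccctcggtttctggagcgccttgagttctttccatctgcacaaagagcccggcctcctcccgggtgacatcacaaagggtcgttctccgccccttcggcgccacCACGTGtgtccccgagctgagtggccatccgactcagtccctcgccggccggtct
The Mast3 window belongs to an internal start, 12621 bases downstream of the annotated gene start, and 4 of the 11 transcripts start within 100 bases of it. None of the 5 motifs was found in it, and its GC content was 68.3%. The start of Mast3 farthest upstream was not searched. The Gm41414 window held GTGGGCG at −108 and TGACG on the opposite strand at −88 from the RefSeq start, and the Tnfrsf21 window held CACGTG at −5. A further Gm41414 window at chr16:5431144-5431443, 124593 bases downstream of the annotated start, held none. Among all 32851 windows of this length, CACGTG was in 7.15%, TGACGTCA in 1.79%, TGACG in 20.8%, TGACTCA in 5.20% and GTGGGCG in 7.97%. These matches are descriptions of the letters only.

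The libraries held 160777 nuclei, 9243992 to 25394891 UMIs per mouse and a median of 1235 to 3169 UMIs per nucleus. Nuclei were assigned to classes by marker genes, so that "CA1 nuclei" means nuclei with CA1-like markers, and 110675 (68.8%) were assigned after 18073 nuclei (11.2%) with markers of several classes were removed. Of 34 markers kept out of the assignment, 28 were highest in their own class. Both check markers of the subicular/cortical class were among the others, with Rorb ranked 3 (54.2 CPM, against 1033 CPM in astrocytes) and Ntng2 ranked 4 of 17 classes, so the name of that class rests on its assignment markers. Of the CA1 check markers, Pou3f1 ranked 2 (45.2 CPM, against 66.4 CPM in oligodendrocyte precursors). Lefty1 was highest in CA1 by little (8.09 CPM, against 7.70 CPM in microglia). CA1 nuclei held a mean of 4.79 UMIs of CA1 markers and 3.64 of astrocyte markers. Nuclei close to the assignment boundary made up 61.9% of CA3, 25.1% of CA1, 24.6% of dentate gyrus (DG) and 13.1% of subicular/cortical nuclei. Among 157472 distinct barcodes, 3251 occurred in more than 1 library, and no pair of libraries shared more than 35. Mice 1 to 4, which are 1 mouse of each awake and isoflurane group, stood apart with 0.939% to 1.78% mitochondrial UMIs against 0.0353% to 0.336% in the other 16, and results are given without them where this matters. The Prnp levels in CA1 were 27.8 to 173 CPM in WT and 62.8 to 438 CPM in APP/PS1 mice and overlapped, so they do not check every genotype label. Since counts were summed over the nuclei of a class, the values here do not tell a lower level in each nucleus from fewer nuclei that express the gene.

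In CA1 nuclei, all 4 genes were lower in every isoflurane mouse than in every awake mouse. Levels are in CPM, the usual library-size-scaled UMI count of a gene among all UMIs of the class, adjusted by the TMM factor of the mouse. Mast3 in awake WT mice was 161 CPM at the lowest, 173 at the median and 228 at the highest, and 236, 144 and 192 CPM in the awake APP/PS1 mice. Under isoflurane it was 90.0, 71.4 and 71.4 CPM in WT and 57.1, 78.9, 67.9 and 48.7 CPM in APP/PS1 mice. The highest isoflurane mouse thus lay well under the lowest awake mouse, and the log2 difference was −1.41 (SE 0.13). Gm41414 in awake mice was 41.2, 57.3 and 69.9 CPM (lowest, median and highest WT) and 58.9, 53.7 and 67.2 CPM (APP/PS1). Under isoflurane it was 21.8, 28.0 and 33.6 CPM in WT and 20.8, 25.1, 26.0 and 27.8 CPM in APP/PS1 mice, a log2 difference of −1.14 (SE 0.24). The groups again did not overlap.

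Tnfrsf21 in CA1 was 65.3, 79.3 and 88.6 CPM (lowest, median and highest) in awake WT mice and 78.1, 69.6 and 70.0 CPM in awake APP/PS1 mice. Under isoflurane the receptor gene was at 47.6, 52.4 and 48.0 CPM in WT and at 40.6, 46.1, 48.3 and 40.2 CPM in APP/PS1 mice. Its groups were narrow and separate, with a log2 difference of −0.69 (SE 0.10). Bhlhe40, at 17.2, 27.5 and 43.5 CPM in awake WT and 38.2, 28.8 and 29.1 CPM in awake APP/PS1 mice, was at 13.5, 8.46 and 11.2 CPM in WT and 7.92, 9.77, 10.8 and 5.55 CPM in APP/PS1 mice under isoflurane. This log2 difference of −1.64 (SE 0.22) came with the widest spread among awake mice relative to the mean of the 4 genes. Across the 12934 genes tested in CA1, 0.472% had every isoflurane mouse below every awake mouse and 1.88% were called lower. Since the genes were selected on these values, nothing is read from these shares. Without mice 1 to 4 the log2 differences in CA1 were −1.31, −0.99, −0.62 and −1.59 for Mast3, Gm41414, Tnfrsf21 and Bhlhe40.

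**Figure D1:**
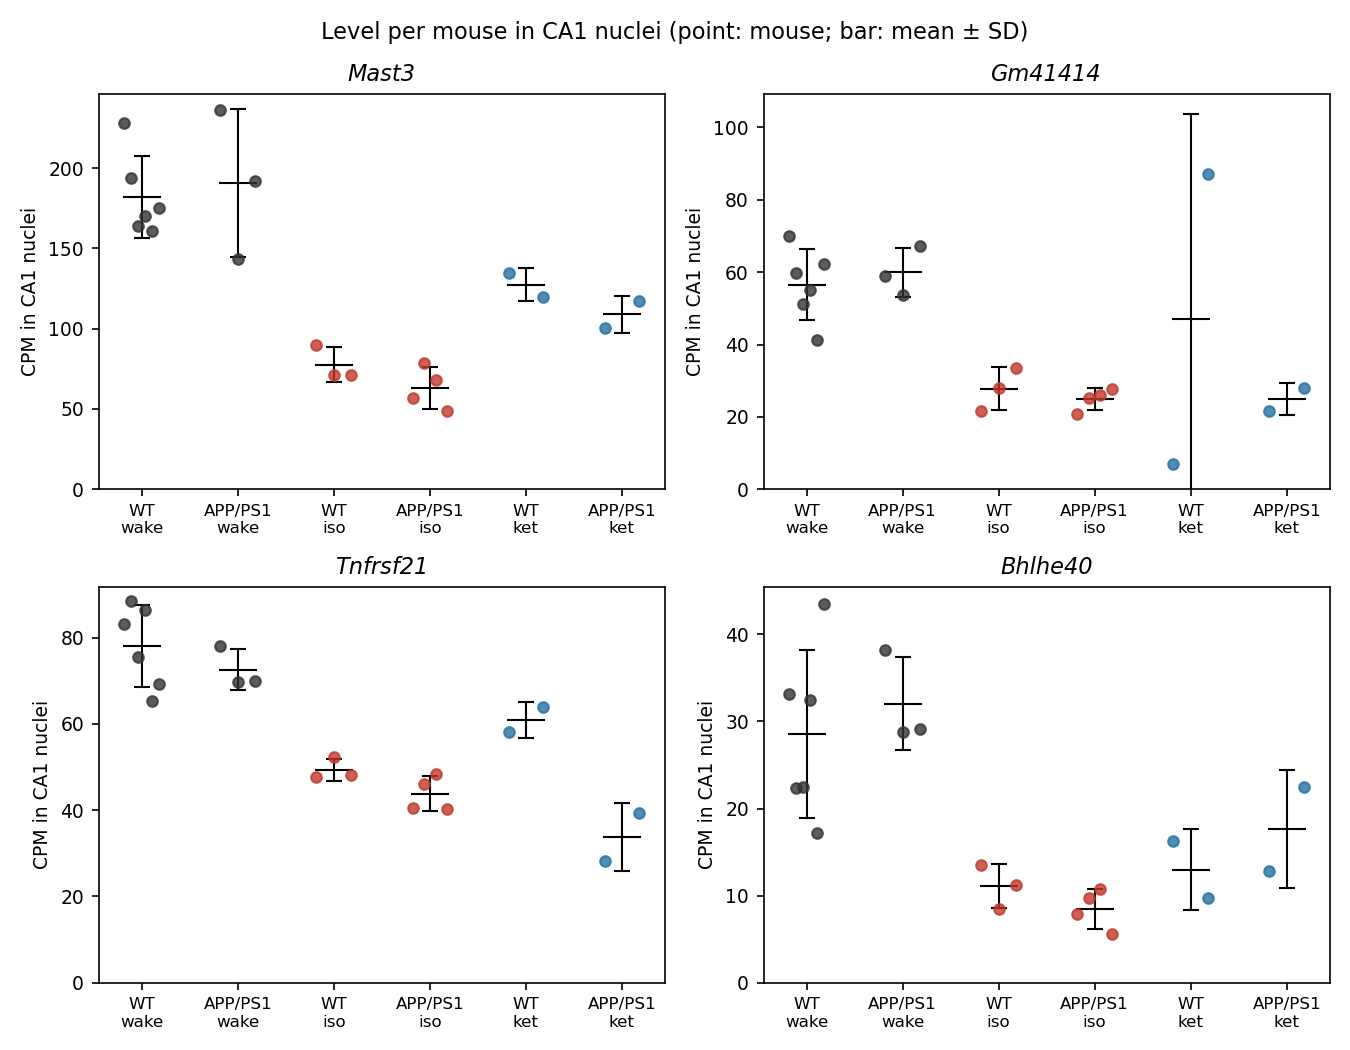
Level of each gene in CA1 nuclei (vertical axis, CPM) for the 6 groups of mice. Each point is 1 mouse and bars are mean ± SD. All isoflurane mice lie below all awake mice for the 4 genes, as chosen, while the 4 ketamine mice spread from 6.96 to 87.1 CPM for Gm41414.

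Outside CA1, Mast3 was called lower under isoflurane in CA3, subicular/cortical and DG nuclei and higher in astrocytes. Tnfrsf21 was called lower in CA3, and Bhlhe40 was called lower in subicular/cortical nuclei and higher in astrocytes. Gm41414 was called lower in DG, from few counts. The tests were edgeR's quasi-likelihood tests over all genes of a class with Benjamini-Hochberg adjustment, which measure the spread between mice, in 8 classes besides CA1. Mast3 and Tnfrsf21 passed the filter on low counts in all 8, Bhlhe40 in 7 (not microglia) and Gm41414 in 4 (CA3, DG, subicular/cortical and inhibitory). Beyond the counted calls, tests in which a gene missed the threshold do not show that it was the same in both states.

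In CA3 nuclei, Mast3 was 157, 179 and 245 CPM (lowest, median and highest) in awake WT mice and 248, 157 and 179 CPM in awake APP/PS1 mice. Under isoflurane it was 77.0, 83.0 and 106 CPM in WT and 93.9, 101, 96.5 and 102 CPM in APP/PS1 mice. All isoflurane mice were below all awake mice, which held for 0.177% of the genes tested in CA3. The log2 fold change was −1.01 (SE 0.12, edgeR adjusted p = 0.00020), where 0.645% of genes were called lower. Within genotypes it was −1.06 in WT (edgeR adjusted p = 0.014, 0.0265% of genes called lower) and −0.97 in APP/PS1 mice (edgeR adjusted p = 0.036, 0.0353% called lower). The call held in all 20 fits that left out 1 mouse. Scaling the CA1 level of Mast3 by the share of CA1 marker UMIs seen in CA3 would carry 19.8 CPM of the 189 CPM observed in awake mice and 7.52 of the 94.2 CPM under isoflurane. The part of CA1 RNA in the CA3 result was not tested beyond these values.

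Subicular/cortical nuclei had about the same fold change for Mast3 from a lower start. The awake WT mice ranged from 43.5 over a median of 90.6 to 126 CPM and the awake APP/PS1 mice were at 125, 98.6 and 74.2 CPM. Under isoflurane the levels were 61.6, 21.4 and 50.2 CPM in WT and 50.2, 39.8, 40.9 and 28.7 CPM in APP/PS1 mice. The ranges overlapped through the awake mouse at 43.5 CPM, and the log2 fold change was −1.14 (SE 0.21, edgeR adjusted p = 0.0022), where 3.01% of genes were called lower. Within genotypes the change was −1.31 in APP/PS1 mice (edgeR adjusted p = 0.041, 0.296% of genes called lower) and −0.98 in WT mice (0.097). With a stricter assignment of nuclei it was −0.68 (edgeR adjusted p = 0.158). CA1 markers summed to 494 ± 68.9 CPM in these nuclei in wakefulness and 360 ± 63.0 CPM under isoflurane (SD, n = 9 and 7), with 1 of 7 tested markers called lower and none at 0. Scaled by all CA1 markers, the CA1 level of Mast3 would carry 67.8 of 91.8 CPM in awake and 20.8 of 41.8 CPM in isoflurane mice, while the astrocyte markers in these nuclei would carry 0.886 and 1.14 CPM. Their part in the result was not tested.

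In DG granule-cell nuclei, where Mast3 was 164, 227 and 267 CPM (lowest, median and highest) in awake WT mice and 242, 169 and 246 CPM in awake APP/PS1 mice, the gene fell as well. The isoflurane mice were at 174, 139 and 147 CPM (WT) and 168, 169, 121 and 106 CPM (APP/PS1). The lowest awake mice overlapped with the highest isoflurane mice. On the log2 scale, the fold change was −0.57 (SE 0.13, edgeR adjusted p = 0.021), where 1.1% of genes were called lower. The adjusted p rose to 0.062, 0.057 and 0.052 (edgeR) when the APP/PS1 awake mouse 2 or the WT isoflurane mice 16 or 18 were left out, and to 0.091 without mice 1 to 4, with log2 fold changes of −0.54, −0.54, −0.56 and −0.61.

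Astrocytes went the other way for Mast3. The awake WT mice were at 22.4, 34.8 and 50.7 CPM (lowest, median and highest) and the awake APP/PS1 mice at 37.4, 35.1 and 32.5 CPM. Under isoflurane they were at 71.3, 50.9 and 56.6 CPM (WT) and 76.3, 47.7, 66.7 and 44.4 CPM (APP/PS1), so that 5 of 7 lay above every awake mouse. The log2 fold change was 0.75 (SE 0.17, edgeR adjusted p = 0.012), where 4.55% of genes were called higher, and it was 0.43 (edgeR adjusted p = 0.115) with mixed nuclei kept and 0.65 (edgeR adjusted p = 0.073) without mice 1 to 4. Mast3 was highest in oligodendrocytes, and 8 oligodendrocyte markers summed to 686 ± 356 CPM in the astrocytes of awake mice and 638 ± 308 CPM under isoflurane (SD), with no marker at 0 and 0 of 8 called. Scaled by these markers, oligodendrocyte Mast3 would carry 25.7 ± 21.5 of 35.6 CPM in awake mice and 39.8 ± 28.7 of 59.1 CPM under isoflurane. DG markers in astrocytes summed to 2082 ± 250 CPM in awake and 1810 ± 444 CPM in isoflurane mice (SD), with 1 of 8 called lower and none at 0, and, scaled in the same way, would carry 90.1 CPM in awake and 61.3 CPM in isoflurane mice, more than was observed. The part of these cells in the astrocyte result was not tested.

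In oligodendrocytes themselves, Mast3 was 421, 583 and 1066 CPM (lowest, median and highest) in awake WT mice and 997, 452 and 486 CPM in awake APP/PS1 mice, with mice 1 and 2 well above the other 7. Under isoflurane it was 858, 1076 and 939 CPM in WT and 1285, 666, 942 and 866 CPM in APP/PS1 mice. The log2 difference of 0.57 (SE 0.21) did not pass the test (edgeR adjusted p = 0.122), where 3.62% of genes were called higher. DG markers summed to 3370 ± 288 CPM in the oligodendrocytes of awake and 2954 ± 395 CPM in those of isoflurane mice (SD), with 2 of 7 tested markers called lower and none at 0, and would carry 147 and 103 CPM of Mast3. Their part in the difference was not tested. Without mouse 1 it was 0.67 (edgeR adjusted p = 0.033), without mouse 2 it was 0.79 (0.028), and without mice 1 to 4 it was 0.83 (edgeR adjusted p = 0.0017). With runs of mouse numbers as a block it was 0.55 (edgeR adjusted p = 0.026), and without the gene filter 0.57 (0.040). The runs began at mice 1, 10, 14, 18 and 25, where the cuts at 14 and 18 were assumed. In inhibitory neurons, oligodendrocyte precursors (OPC) and microglia the log2 differences of Mast3 were 0.04, −0.02 and 0.16, each under its SE of 0.20, 0.22 and 0.42, and 1.33%, 0.138% and 0.183% of genes were called lower in those classes. Among inhibitory neurons split by markers of their origin, the log2 difference was 0.27 (SE 0.37) in the medial and −0.25 (SE 0.27) in the caudal ganglionic eminence class.

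**Figure D2:**
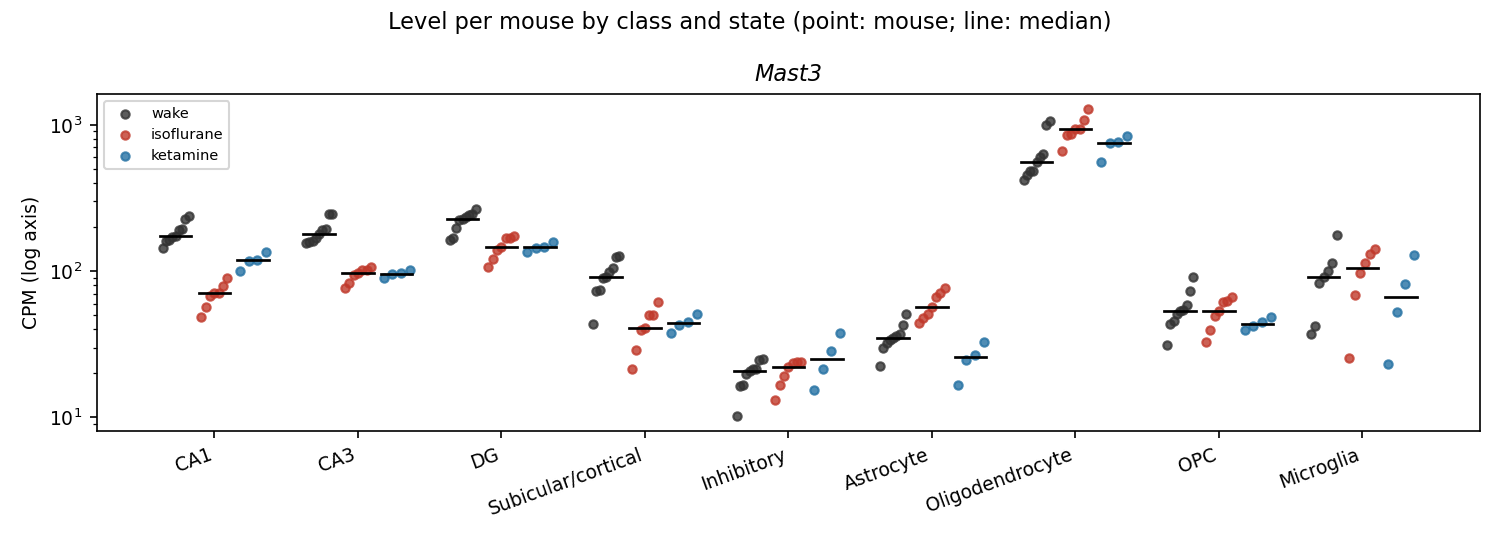
Mast3 level per mouse (vertical axis, CPM, log scale) in 9 classes, for awake, isoflurane and ketamine mice. Points are mice and lines are medians. Isoflurane points sit below all awake points in CA1 and CA3 and overlap with them in the other 7 classes, with 4 of 7 below every awake mouse in DG and in subicular/cortical nuclei, and 5 of 7 above every awake mouse in astrocytes and 2 of 7 in oligodendrocytes.

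Tnfrsf21 fell in CA3. Its level there in awake WT mice was 79.6, 99.9 and 112 CPM (lowest, median and highest) and in awake APP/PS1 mice 122, 104 and 95.1 CPM, against 59.6, 71.5 and 71.9 CPM (WT) and 71.6, 61.1, 81.9 and 66.1 CPM (APP/PS1) under isoflurane. Of 7 isoflurane mice, 6 lay below every awake mouse. On the log2 scale, the fold change was −0.56 (SE 0.12, edgeR adjusted p = 0.020). It was −0.31 (edgeR adjusted p = 0.505) under the stricter assignment and −0.47 (edgeR adjusted p = 0.229) without mice 1 to 4. Leaving out mouse 2, 3 or 10 gave adjusted p of 0.061, 0.057 and 0.053 (edgeR) with log2 fold changes of −0.52, −0.53 and −0.57. CA1 markers would carry 8.15 of 101 CPM in awake and 4.94 of 69.1 CPM in isoflurane mice. In the other 7 classes its log2 differences ran from −0.33 in subicular/cortical nuclei (edgeR adjusted p = 0.281) to 0.20 in astrocytes (0.724). The DG, for example, had 54.6 ± 7.52 CPM in 9 awake and 50.2 ± 6.88 CPM in 7 isoflurane mice (SD).

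Bhlhe40 in subicular/cortical nuclei was 14.5, 22.3 and 37.8 CPM (lowest, median and highest) in awake WT mice and 30.0, 26.2 and 34.8 CPM in awake APP/PS1 mice. Under isoflurane it was 20.7, 17.4 and 11.7 CPM in WT and 12.7, 7.65, 10.0 and 13.6 CPM in APP/PS1 mice, so that 5 of 7 lay below all awake mice. The log2 fold change was −0.97 (SE 0.21, edgeR adjusted p = 0.0096). It was −1.40 within APP/PS1 mice (edgeR adjusted p = 0.038) and −0.54 within WT mice (0.401). The stricter assignment gave −1.14 (edgeR adjusted p = 0.11). CA1 markers would carry 11.0 of 25.8 CPM in awake and 2.94 of 13.4 CPM in isoflurane mice. Astrocyte markers in these nuclei summed to 575 ± 129 CPM in awake and 414 ± 75.2 CPM in isoflurane mice (SD, 1 of 8 called lower, none at 0) and would carry 1.42 and 2.00 CPM of Bhlhe40. The part of both in the result was not tested. In CA3, where the transcript was rare at 5.85 ± 2.59 CPM in awake and 2.40 ± 1.06 CPM in isoflurane mice (SD), the log2 difference of −1.21 (SE 0.48) did not pass (edgeR adjusted p = 0.257), and in DG it was −0.09 (0.894).

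Bhlhe40 rose in astrocytes, the class with its second-highest awake mean. Awake mice were at 39.0, 52.9 and 70.8 CPM (lowest, median and highest WT) and 56.5, 70.2 and 71.6 CPM (APP/PS1), and isoflurane mice at 156, 80.5 and 100 CPM (WT) and 153, 92.5, 77.6 and 70.2 CPM (APP/PS1). All but 1 isoflurane mouse exceeded every awake mouse, and mice 3 and 4, both in the group with high mitochondrial UMIs, were the highest. On the log2 scale, the fold change was 0.84 (SE 0.18, edgeR adjusted p = 0.0065), and 0.47 (edgeR adjusted p = 0.093) without mice 1 to 4. Endothelial markers summed to 42.2 ± 39.6 CPM in the astrocytes of awake and 45.6 ± 16.8 CPM in those of isoflurane mice (SD), with 1 of 4 tested markers called higher and none of the 8 at 0. Endothelial Bhlhe40 itself was 65.6 ± 17.4 CPM in 4 awake and 258 ± 172 CPM in 4 isoflurane mice. In these mice it would carry 0.330 of 55.8 CPM and 0.767 of 118 CPM when scaled by all endothelial markers, and 1.43 and 8.71 CPM when scaled by those kept out of the assignment. The part of endothelial RNA in the result was not tested. Within WT mice it was 1.09 (edgeR adjusted p = 0.024, 0.906% of genes called higher) and within APP/PS1 mice 0.58 (0.344). In oligodendrocytes the log2 difference was 0.98 (SE 0.37, edgeR adjusted p = 0.144; 1.08 and 0.016 with runs of mouse numbers as a block), with 12.1 ± 5.60 CPM in awake and 24.6 ± 15.5 CPM in isoflurane mice (SD). Astrocyte markers would carry 1.19 and 2.31 CPM of these.

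Gm41414 was nearly absent from DG, with 6 to 13 UMIs in each awake mouse and 0 to 5 in each isoflurane mouse. The gene passed the filter on low counts through the awake and ketamine mice, so that its call there is given as a value and not as a shared fall. Awake mice had 80 UMIs in all, with 1.83, 2.29 and 2.91 CPM (lowest, median and highest) in WT and 1.65, 4.63 and 1.08 CPM in APP/PS1 mice. Under isoflurane the levels were 0.524, 0.563 and 0.153 CPM (WT) and 0, 0.994, 0.960 and 0.772 CPM (APP/PS1), all below the awake mice, as for 0.328% of genes. The log2 difference was −2.10 (SE 0.52, edgeR adjusted p = 0.036, and 0.034 without the gene filter). It held in 9 of 20 fits without 1 mouse, losing the call without mouse 1, 2, 3, 4, 10, 12, 13, 14, 16, 18 or 20 (log2 fold changes from −1.72 to −2.27), and it was lost under the stricter assignment (−1.92, edgeR adjusted p = 0.095) and without mice 1 to 4 (−2.07, 0.161). The adjusted p of the lost calls ran from 0.052 to 0.124 (edgeR). By CA1 markers, CA1 nuclei would carry 2.28 CPM of the 2.39 CPM in awake and 0.998 CPM against the 0.567 CPM observed in isoflurane mice. The part of CA1 RNA in the DG result was not tested.

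Gm41414 was not called in the class with its highest level. In subicular/cortical nuclei, awake mice were at 64.3, 96.4 and 113 CPM (lowest, median and highest WT) and 74.8, 60.3 and 118 CPM (APP/PS1), and isoflurane mice at 72.0, 72.3 and 102 CPM (WT) and 76.0, 81.1, 85.5 and 145 CPM (APP/PS1). The ranges overlapped almost entirely and the log2 difference was 0.04 (SE 0.17, edgeR adjusted p = 0.944). In CA3 it was −0.09 (SE 0.45) at 6.68 ± 3.78 CPM in awake mice (SD), and in inhibitory neurons −0.71 (SE 0.50, edgeR adjusted p = 0.615), where the awake APP/PS1 mouse 17 had 87.2 CPM and the other 8 awake mice 6.87 to 22.1 CPM.

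**Figure D3:**
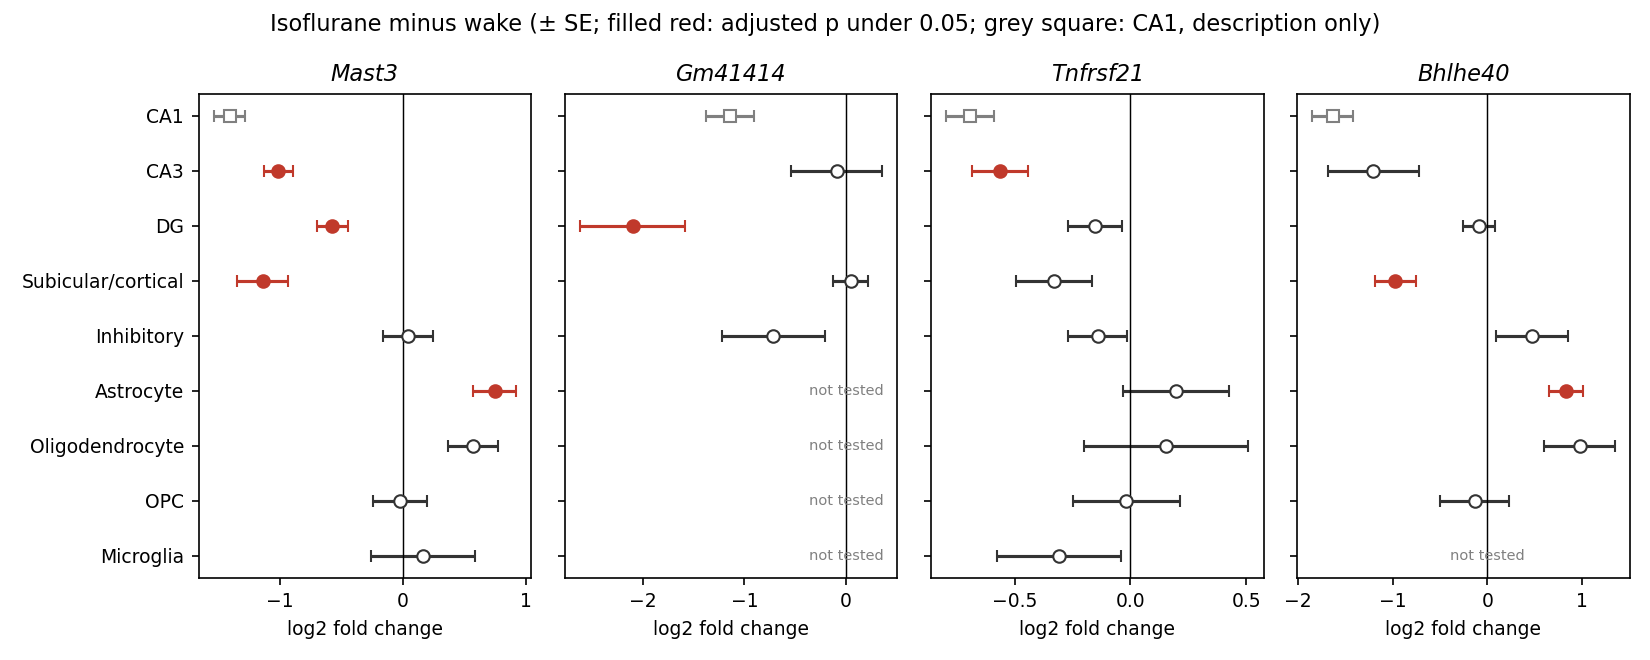
Isoflurane minus wake log2 fold change (horizontal axis) of the 4 genes by class, with SE bars. Filled points had an edgeR adjusted p under 0.05, and grey squares in CA1 are the values by which the genes were chosen. Mast3 lies left of 0 in CA3, DG and subicular/cortical nuclei and right of 0 in astrocytes (0.75).

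Whether the classes differed from each other was tested directly. In each mouse the log2 level in DG (with 1 CPM added) was subtracted from that in another class, and the isoflurane and awake mice were compared by an exact two-sided permutation test within genotypes, over 23 pairs of gene and class with CA1 left out. Adjusted over the 23 pairs, 10 differed from DG. One of these, Gm41414 in subicular/cortical nuclei (1.12, exact permutation adjusted p = 0.022), is set aside, since the change was 0.01 in that class and −1.10 in DG, where the gene had few UMIs and passed the filter through the mice in which it was high. Another, Bhlhe40 in CA3 (−0.88, exact permutation adjusted p = 0.037), is set aside too. It was at most 3.73 CPM under isoflurane there and passed the filter through the awake and ketamine mice. The change of Mast3 was more positive than in DG by 1.29 in astrocytes and by 1.20 in oligodendrocytes (exact permutation adjusted p = 0.0078 for both) and by 0.59 in inhibitory neurons (0.038), and more negative in CA3 (−0.43, exact permutation adjusted p = 0.037). The difference of −0.59 between subicular/cortical and DG nuclei did not pass (exact permutation adjusted p = 0.078). Tnfrsf21 differed in CA3 (−0.40, exact permutation adjusted p = 0.0078). Bhlhe40 differed in subicular/cortical nuclei (−0.87, exact permutation adjusted p = 0.030), astrocytes (0.84, 0.018) and oligodendrocytes (0.92, 0.037). When each of the 16 mice was left out in turn, Mast3 in astrocytes and oligodendrocytes, Tnfrsf21 in CA3 and Bhlhe40 in astrocytes passed in all 16 sets. Bhlhe40 in subicular/cortical nuclei passed in 14, Mast3 in CA3 and Bhlhe40 in oligodendrocytes in 6, Mast3 in inhibitory neurons in 5 and the set-aside pair of Bhlhe40 in CA3 in 2.

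Genotype made no difference that passed a test. In no class was any gene called between APP/PS1 and WT mice, awake or under isoflurane, or for the difference of the isoflurane effect between genotypes (0% of genes called by edgeR in each of these comparisons). The study, which took nuclei as units, reported genes that differed between genotypes in CA1 excitatory neurons in wakefulness and under anesthesia. Here, the genes with an unadjusted p under 0.05 numbered 39 of 3278 tested (microglia, isoflurane) to 490 of 15249 tested (DG, difference of effects) per class and comparison. For the 4 genes the unadjusted p was never under 0.05 in these 3 comparisons, and DESeq2 called none of them between genotypes. The isoflurane effect on Mast3 in APP/PS1 minus that in WT mice ran from −0.47 (SE 0.40) in inhibitory neurons to 0.15 (SE 0.85) in microglia on the log2 scale. In CA1 the log2 differences under isoflurane were −1.23 in WT and −1.60 in APP/PS1 mice. The effect on Bhlhe40 was more negative in APP/PS1 mice in every class in which it was fitted, by −0.22 in OPC to −0.99 in inhibitory neurons. In subicular/cortical nuclei it was −0.86 (SE 0.43, edgeR adjusted p = 0.962 and unadjusted p = 0.056). These classes share their mice, so the shared sign is not repeated evidence. The log2 difference of awake APP/PS1 minus awake WT mice was positive in each of them, from 0.0046 in CA3 to 0.62 in inhibitory neurons, and none was called.

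Ketamine with xylazine was compared with wakefulness as a different anesthetic. It shares the awake mice with the comparison that chose the genes, so its CA1 values are also given without a test. In CA1, Mast3 was 135 and 120 CPM in WT and 101 and 117 CPM in APP/PS1 mice, between the isoflurane and the awake mice without overlap with either. Ketamine mice all lay below the awake mice for 2.99% of CA1 genes and all above the isoflurane mice for 2.3%, and nothing is read from the separation of a gene chosen in CA1. The log2 difference was −0.66 from wakefulness and 0.75 from isoflurane. Tnfrsf21 was 58.0 and 63.9 CPM (WT) and 28.2 and 39.3 CPM (APP/PS1), with −0.73 from wakefulness. Bhlhe40 was 16.2 and 9.68 CPM (WT) and 12.9 and 22.5 CPM (APP/PS1), with −1.01. Gm41414 had the widest spread, with 6.96 and 87.1 CPM in the 2 WT mice, 27 and 28, and 21.7 and 28.1 CPM in the APP/PS1 mice. The value of 6.96 CPM rested on 3 UMIs.

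In CA3, Mast3 was 101 and 89.8 CPM (WT) and 95.4 and 96.4 CPM (APP/PS1) under ketamine, all below the awake mice (2.07% of genes) and inside the isoflurane range. On the log2 scale, the fold change from wakefulness was −0.99 (SE 0.16, edgeR adjusted p = 0.0039), where 1.81% of genes were called lower, and the log2 difference from isoflurane 0.02. In subicular/cortical nuclei Mast3 was 51.3, 43.1, 45.2 and 37.5 CPM in mice 27, 28, 25 and 26, a log2 fold change of −1.12 from wakefulness (SE 0.25, edgeR adjusted p = 0.012, 2.79% of genes called lower). In DG it was 159, 146, 136 and 145 CPM, all below the awake mice (3.1% of genes), with −0.58 (SE 0.15, edgeR adjusted p = 0.020, 5.82% called lower). Leaving out any of the ketamine mice took the adjusted p to between 0.056 and 0.071 in subicular/cortical nuclei and between 0.056 and 0.097 in DG, where leaving out the awake mouse 2 gave 0.050. The isoflurane and ketamine comparisons share their awake mice.

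Tnfrsf21 was lower under ketamine in DG. Its DG level was 40.3 and 31.0 CPM (WT) and 26.5 and 33.9 CPM (APP/PS1), with 3 of 4 below every awake mouse. The log2 fold change was −0.76 from wakefulness (SE 0.15, edgeR adjusted p = 0.0048) and −0.60 from isoflurane (SE 0.15, edgeR adjusted p = 0.038, 1.88% of genes called lower). The second of these was lost when any ketamine mouse was left out (edgeR adjusted p from 0.058 to 0.186) or when isoflurane mouse 4, 15, 16 or 18 was (0.053 to 0.077). In CA3 the log2 fold change from wakefulness was −0.62 (SE 0.16, edgeR adjusted p = 0.033), lost without mouse 2, 13, 25, 27 or 28 (0.052 to 0.206), under the stricter assignment (0.121) and without mice 1 to 4 (0.086). Bhlhe40 under ketamine fell in subicular/cortical nuclei to 17.4, 9.80, 9.60 and 7.04 CPM in mice 27, 28, 25 and 26 (log2 fold change −1.32, SE 0.26, edgeR adjusted p = 0.0061), lost under the stricter assignment (−1.06, edgeR adjusted p = 0.163). It rose in astrocytes to 105, 113, 153 and 133 CPM, all above the awake mice (3.16% of genes), with a log2 fold change of 1.08 (SE 0.21, edgeR adjusted p = 0.0044), where 4.74% of genes were called higher. Gm41414 passed in none of its 4 classes, with unadjusted p under 0.05 in 0 of them.

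The 2 anesthetics differed for Mast3 in astrocytes, where the ketamine mice were at 24.8, 32.6, 26.7 and 16.8 CPM in mice 27, 28, 25 and 26 and all lay below the lowest isoflurane mouse, as for 3.79% of genes. On the log2 scale, the fold change of ketamine against isoflurane was −1.24 (SE 0.23, edgeR adjusted p = 0.0046), where 4.35% of genes were called lower. Oligodendrocyte markers in astrocytes summed to 638 ± 308 CPM in isoflurane and 337 ± 107 CPM in ketamine mice (SD). The part of oligodendrocyte RNA in this difference was not tested. Bhlhe40 in oligodendrocytes was 5.59 ± 2.48 CPM in ketamine and 24.6 ± 15.5 CPM in isoflurane mice (SD). It passed the filter on low counts there through the awake and isoflurane mice. Its call (−2.12, edgeR adjusted p = 0.035, 2.13% called lower) is therefore given as a value only. Tnfrsf21 was also lower than under isoflurane in astrocytes (−1.10, edgeR adjusted p = 0.040). The calls of Tnfrsf21 and Bhlhe40 were lost in 10 and 7 of the 20 fits without 1 mouse. For Tnfrsf21 these were the fits without mouse 3, 4, 13, 14, 15, 18, 25, 26, 27 or 28 (edgeR adjusted p up to 0.201), and for Bhlhe40 those without mouse 3, 4, 15, 25, 26, 27 or 28 (up to 0.179). When consecutive mouse numbers were blocked in the fit, none of the ketamine calls of the 4 genes remained outside CA1, with adjusted p of 0.327 or more for Mast3, 0.584 or more for Tnfrsf21 and 0.54 or more for Bhlhe40 (edgeR). In that fit the ketamine effect rests on the single awake mouse of their run.

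**Figure D4:**
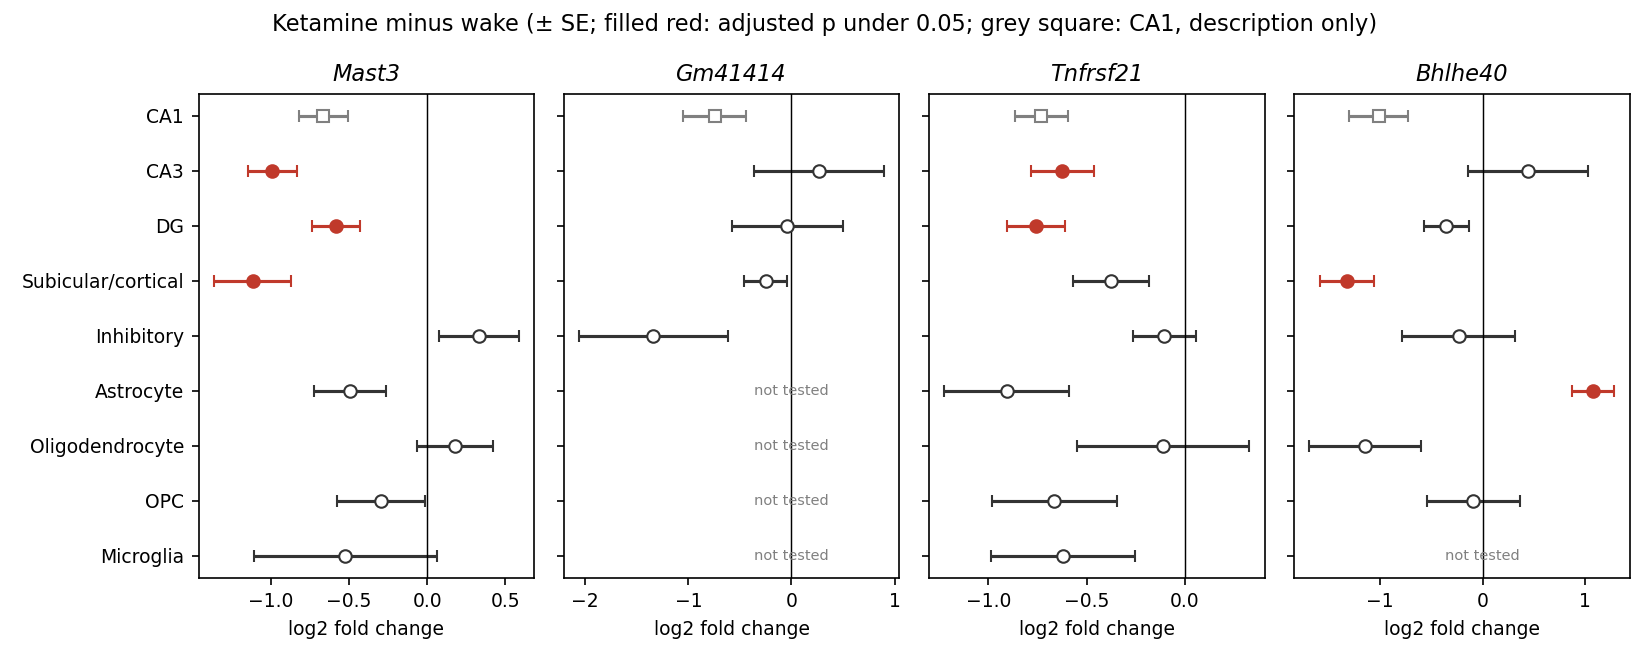
Ketamine minus wake log2 fold change (horizontal axis) of the 4 genes by class, with SE bars, drawn as for isoflurane. Mast3 is near −1 in CA3 and subicular/cortical nuclei, Tnfrsf21 is lower in DG (−0.76) and CA3, and Bhlhe40 is higher in astrocytes (1.08).

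The awake levels of the 4 genes fell into different classes. Mast3 was highest in oligodendrocytes (634 ± 236 CPM, SD, n = 9), followed by DG (219 ± 35.3), CA3 (189 ± 35.4) and CA1 (185 ± 30.9), whose SD ranges overlapped, and then microglia (92.1 ± 46.8, n = 7) and subicular/cortical nuclei (91.8 ± 26.2). OPC, astrocytes and inhibitory neurons were lower, at 55.7 ± 17.3, 35.6 ± 8.0 and 19.6 ± 4.61 CPM. The 3 classes in which Mast3 was called lower besides CA1 were all excitatory. Its awake level was lowest in the inhibitory class among the 9 tested classes. Gm41414 was highest in subicular/cortical nuclei (90.3 ± 21.5 CPM), then CA1 (57.7 ± 8.68), apart by more than their SD, and inhibitory neurons (22.5 ± 24.7). No UMI of it was seen in the microglia of awake mice, where 3 UMIs would be 3.49 CPM.

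For Tnfrsf21, the awake means were 122 ± 23.6 CPM in microglia, 101 ± 13.0 in CA3, 76.2 ± 8.35 in CA1, 60.2 ± 7.90 in inhibitory neurons, 56.1 ± 19.9 in OPC, 54.6 ± 7.52 in DG and 50.1 ± 9.86 in subicular/cortical nuclei. The SD ranges of CA3 and CA1 did not overlap, while the other neighbours in this order did. Astrocytes (22.3 ± 6.07 CPM) and oligodendrocytes (10.9 ± 3.19) were lower. Committed oligodendrocyte precursors reached 134 ± 117 CPM in 3 mice, and the 140 Cajal-Retzius nuclei pooled from awake mice held 59 UMIs, or 351 CPM. Bhlhe40 was highest in endothelial cells (65.6 ± 17.4 CPM, 4 mice) and astrocytes (57.3 ± 11.4), whose SD ranges overlapped. Fibroblasts were at 34.6 ± 23.9 CPM in 3 mice, reaching into the astrocyte range, and the pooled Cajal-Retzius nuclei held 6 UMIs, or 35.7 CPM. CA1 (29.7 ± 8.27), subicular/cortical nuclei (25.8 ± 7.34), OPC (23.0 ± 11.2), DG (19.5 ± 4.98) and oligodendrocytes (12.1 ± 5.60) followed below the astrocyte range, with overlaps between neighbours. Among the 9 tested classes Bhlhe40 was lowest in CA3 (5.85 ± 2.59), inhibitory neurons (4.52 ± 2.51) and microglia (3.43 ± 6.04), and 1 UMI was seen in the 182 committed precursor nuclei of awake mice.

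**Figure D5:**
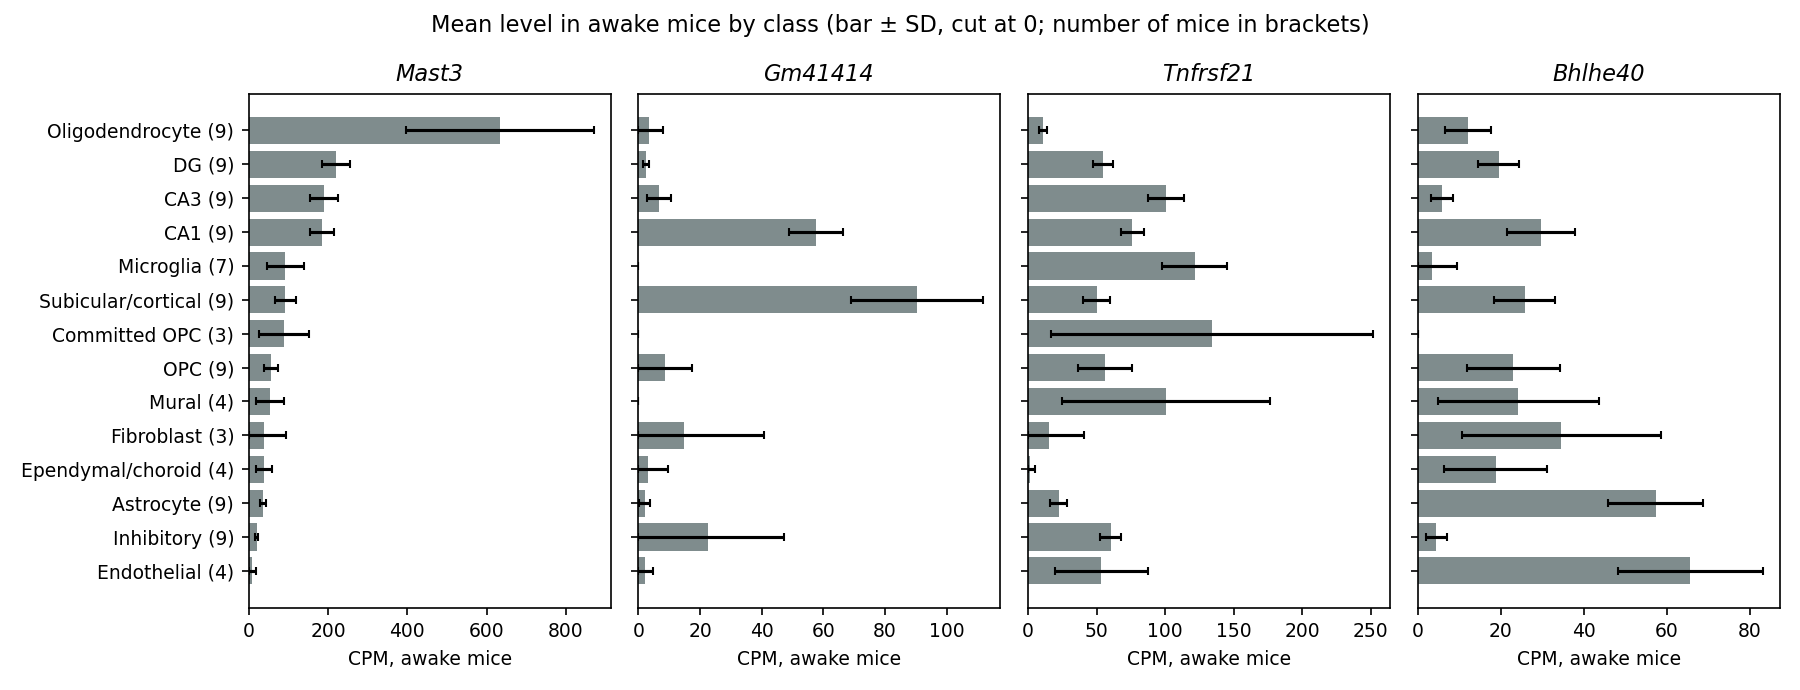
Mean level in awake mice (horizontal axis, CPM) of the 4 genes by class, with SD and the number of mice in brackets. Mast3 peaks in oligodendrocytes, Gm41414 in subicular/cortical and CA1 nuclei, and Bhlhe40 in endothelial cells and astrocytes, while Tnfrsf21 is above 50 CPM in 10 of the 14 classes drawn.

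Genes whose levels followed the same order over 17 classes were ranked among 15925 genes by Pearson's r of log levels. These levels were pooled over the nuclei of all mice, awake and anesthetized, so the ranking does not describe wakefulness alone. It is a description over classes that share libraries. The nearest to Mast3 were Atg4c (r = 0.88), Desi1, Tma16, Aplp1 and Gm48678, all highest in oligodendrocytes. Gm41414 was most like B230216N24Rik (0.85), Stac, Il1rapl2, Gm11844 and Gm19744. Tnfrsf21 was nearest to Nfrkb (0.87), Tmem150b, Ccnj, Smyd2 and Spdya. Bhlhe40 was nearest to Ctdsp2 (0.87), Plscr4, Sparcl1, Gpd2 and Prnp.

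Genes related to the 4 by family, pathway or position were followed in the same fits. Of the other MAST kinases, Mast1, Mast2, Mast4 and Mastl, all 4 were tested in CA3, DG, subicular/cortical nuclei, astrocytes and inhibitory neurons. None was called under isoflurane in CA3, DG or subicular/cortical nuclei, where 0.645%, 1.1% and 3.01% of all genes were called lower. Mast2 was 120 ± 15.1 CPM in wakefulness and 117 ± 8.95 CPM under isoflurane in CA3, and 108 ± 10.6 and 108 ± 13.1 CPM in DG (SD). In CA1 it was 130 ± 14.5 and 116 ± 16.2 CPM, and Mast4 332 ± 44.3 and 323 ± 54.7 CPM. In astrocytes Mast4 rose beside Mast3, from 405 ± 40.4 to 647 ± 85.7 CPM (log2 fold change 0.67, edgeR adjusted p = 0.00068), 1 of 4 against 4.55% of all genes called higher. In inhibitory neurons Mast2 fell (−0.58, edgeR adjusted p = 0.0067), where 1.33% of all genes were called lower, and Mastl, the mitotic kinase of the family, rose (1.11, edgeR adjusted p = 0.034), where 1.11% were called higher. Under ketamine Mastl was also called higher in inhibitory neurons (1.45, edgeR adjusted p = 0.023), DG (0.92, 0.023), astrocytes (1.51, 0.0051) and oligodendrocytes (1.83, 0.037), classes in which 1.79%, 5.91%, 4.74% and 2.14% of all genes were called higher.

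Among 14 genes of the ARPP phosphoproteins and PP2A subunits, 13 were tested in DG and 1 fell under isoflurane, where 1.1% of all genes were called lower. This was Arpp21, which encodes a phosphoprotein of the ARPP group, from 592 ± 74.6 to 312 ± 92.2 CPM (SD, log2 fold change −0.90, edgeR adjusted p = 0.0056). Ppp2r2b, a regulatory subunit of PP2A, fell in subicular/cortical nuclei (−0.54, edgeR adjusted p = 0.0059), 1 of 13 tested against 3.01% of all genes, and in astrocytes (−0.51, edgeR adjusted p = 0.023), 1 of 14 tested against 2.43% of all genes. None of 12 tested in CA3 was called. Of 13 other TNF receptor and death-domain genes, no more than 5 passed the filter in a class and 0 were called under isoflurane in the 8 classes (edgeR), with an unadjusted p under 0.05 for Tnfrsf25 in CA3 and Tnfrsf19 in subicular/cortical nuclei. Under ketamine, Tnfrsf25, a death-domain receptor, fell in DG from 29.5 ± 8.21 to 8.45 ± 2.94 CPM (SD, log2 fold change −1.86, edgeR adjusted p = 0.0028). This was 1 of 5 tested where 5.82% of all genes were called lower. In CA3 Tnfrsf25 was 15.8 ± 4.44 CPM in awake, 10.9 ± 6.37 CPM in isoflurane and 3.19 ± 3.68 CPM in ketamine mice (SD). It passed the filter there mainly through the awake and isoflurane mice. Its CA3 call (−2.31, edgeR adjusted p = 0.028, 1 of 2 tested against 1.81% of all genes) is therefore given as a value only. The CA1 level of Tnfrsf25 was 17.0 ± 6.37 CPM in awake and 0.718 ± 0.924 CPM in ketamine mice. Tnfrsf19 rose under ketamine in inhibitory neurons, from 8.48 ± 2.64 to 18.6 ± 4.00 CPM (SD, log2 fold change 1.09, edgeR adjusted p = 0.036), 1 of 2 tested against 1.79% of all genes called higher.

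Of 17 other clock genes, Per2, a core repressor of the circadian clock, fell under isoflurane in the 3 excitatory classes besides CA1 and in inhibitory neurons. It was the single call among the 17, 13 and 16 clock genes tested in DG, CA3 and inhibitory neurons, where 1.1%, 0.645% and 1.33% of all genes were called lower. Its log2 fold changes were −0.89 in DG (edgeR adjusted p = 0.022), −1.10 in CA3 (0.039), −1.41 in subicular/cortical nuclei (0.0045) and −1.56 in inhibitory neurons (0.014). Subicular/cortical nuclei, where Bhlhe40 fell, also had lower Npas2 (−0.88, edgeR adjusted p = 0.0036) and Per1 (−1.10, 0.0016), 3 of 16 tested against 3.01% of all genes. Astrocytes, where Bhlhe40 rose, had 3 of 16 higher and 0 lower, where 4.55% of all genes were called higher: Npas2 (0.67, edgeR adjusted p = 0.0026), Ciart (0.95, 0.0022) and Tef (0.40, 0.020). In oligodendrocytes Cry2 (0.75, edgeR adjusted p = 0.019) and Per1 (1.38, 0.0084) rose, where 3.62% of all genes were called higher. The median log2 fold change over the tested clock genes was −0.05 in subicular/cortical nuclei and 0.23 in astrocytes, against 0.02 over all genes in both.

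Activity-regulated genes, which neurons transcribe after firing, were followed as a list of 16. In subicular/cortical nuclei 10 of 14 tested fell and 0 rose (3.01% of all genes called lower), among them Arc (−3.23, edgeR adjusted p = 0.00024) and Npas4 (−3.01, 0.0015), with a list median of −1.58. In inhibitory neurons 4 of 10 fell (1.33% of all genes), in CA3 3 of 11 (Fos, Homer1 and Egr3, with 0.645% of all genes) and in DG 1 of 15 (Arc, −1.94, edgeR adjusted p = 0.033, with 1.1% of all genes). In astrocytes 1 of 11 was called lower (Arc, −1.89, edgeR adjusted p = 0.029), where 2.43% of all genes were. The CA1 level of Arc was 8.59 to 32.4 CPM in awake, 1.71 to 3.70 CPM in isoflurane and 0.936 to 2.42 CPM in ketamine mice. Of the 6 genes that neighbour Gm41414 (Alg1, Eef2kmt and Gm15983 before it, Rbfox1, 1700123O21Rik and Gm49534 after it), at most 3 were tested in a class and 0 were called under isoflurane by edgeR, with an unadjusted p under 0.05 for Alg1 in DG and subicular/cortical nuclei. Rbfox1, which starts 434691 bases downstream, was at 7291 ± 1172 CPM in awake and 6969 ± 1354 CPM in isoflurane mice in CA1 (SD).

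Over all nuclei of a mouse, without classes, the levels also depend on the mix of classes. Ketamine mice had 972 ± 325 DG and 192 ± 81.5 CA1 nuclei, against 1834 ± 637 and 479 ± 139 in awake mice (SD). Isoflurane mice had 2058 ± 554 and 547 ± 121. The part of this mix in the following values was not tested. Mast3 was 172 ± 35.9 CPM in awake, 131 ± 24.9 CPM in isoflurane and 121 ± 10.7 CPM in ketamine mice (SD, n = 9, 7 and 4), and Gm41414 26.4 ± 6.19, 16.0 ± 1.66 and 20.3 ± 8.21 CPM. Tnfrsf21 was 59.8 ± 8.71, 51.3 ± 6.17 and 36.6 ± 5.14 CPM. Bhlhe40, which fell in some classes and rose in others, was 22.4 ± 5.02, 22.2 ± 8.66 and 19.8 ± 1.68 CPM.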

How the data were processed

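Single-nucleus RNA-seq was carried out on the hippocampus of 20 mice. The authors deposited raw UMI counts per gene and nucleus for each mouse, made with Cell Ranger 5.0.0 against mm10 per the submitters' processing notes. The study's methods also name CellBender and DoubletFinder, and whether either was applied to the deposited counts is not given in the sources used here. Depth was 9243992 to 25394891 UMIs per mouse.

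Nuclei were assigned to 17 classes by the likelihood of 95 marker genes (a log-likelihood lead of 3 and at least 2 markers detected), and nuclei better described as mixtures of classes were removed as possible doublets or as nuclei with foreign RNA. Counts were summed per mouse and class where at least 20 nuclei were present. Genes passing edgeR's filterByExpr were fitted with edgeR 4.0.16 (TMM, quasi-likelihood) in R 4.3.3, with 6 groups of genotype and treatment, and p-values were adjusted by Benjamini-Hochberg over all genes of a class at a threshold of 0.05. The SE is the log2 fold change divided by the square root of F. Exact permutation tests used scipy 1.17.1 and numpy 2.4.6. Scripts were tested on simulated data. Alternatives were DESeq2 1.42.0, RLE scaling, no gene filter, stricter assignment (a lead of 8 and 3 markers), mixed nuclei kept, at least 50 nuclei, runs of mouse numbers as a block, mice 1 to 4 left out, wake and isoflurane mice only, each mouse left out, and pseudocounts of 0.5 and 5 CPM. The named genes are the 4 genes in every class and the called genes of 6 lists. The genes and the lists were chosen with earlier results of these data known.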

Additional observations from a re-analysis of the deposited data

Results flagged for a closer look

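In 6 cases a mouse stood apart from the rest of its group. Mast3 in oligodendrocytes was 1066 CPM in the awake WT mouse 1, against a group median of 583 CPM. Gm41414 in subicular/cortical nuclei was 145 CPM in the APP/PS1 isoflurane mouse 20 (median 83.3 CPM). Tnfrsf21 was low in DG in the awake WT mouse 19 (35.9 CPM, median 54.7 CPM) and high in inhibitory neurons of the awake WT mouse 14 (74.1 CPM, median 57.8 CPM). Bhlhe40 was low in oligodendrocytes of the APP/PS1 isoflurane mouse 20 (11.3 CPM, median 25.2 CPM) and high in OPC of the APP/PS1 isoflurane mouse 11 (33.0 CPM, median 19.0 CPM). These are 6 of 60 groups examined with Dixon's criterion, and chance gives about 1 in 20.

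The isoflurane effect differed from that in DG for 10 pairs of gene and class, by the exact permutation test given above. On the log2 scale the differences were −0.43, 0.59, 1.29 and 1.20 for Mast3 in CA3, inhibitory neurons, astrocytes and oligodendrocytes. The difference was −0.40 for Tnfrsf21 in CA3. The value of 1.12 for Gm41414 in subicular/cortical nuclei came from its level in DG (a change of −1.10, against 0.01 in subicular/cortical nuclei), where it had few UMIs and passed the filter through the mice in which it was high, and is not read as a difference between the classes. For Bhlhe40 the differences were −0.87, 0.84 and 0.92 in subicular/cortical nuclei, astrocytes and oligodendrocytes. Its value of −0.88 in CA3 is not read as a difference between the classes either. The gene was rare there and passed the filter through the awake and ketamine mice.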

How the results depend on the processing

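No value that passed its test reversed its direction under any alternative. Under isoflurane, the number of classes other than CA1 in which Mast3 was lower went from 3 to 2 under the stricter assignment and without mice 1 to 4. The number of classes other than CA1 in which Mast3 was higher went from 1 to 2 without the gene filter and with the mouse-number block, both gaining oligodendrocytes, and to 0 with mixed nuclei kept. The number in which Gm41414 was lower went from 1 to 0 under the stricter assignment and without mice 1 to 4, as did that of Tnfrsf21. For Bhlhe40 the number of lower classes went from 1 to 0 under the stricter assignment, and of higher classes from 1 to 2 with the block, gaining oligodendrocytes, and 0 without mice 1 to 4. Under ketamine, the classes with lower Mast3 went from 3 to 0 with the block. Those with lower Tnfrsf21 went from 2 to 1 under the stricter assignment, 1 without mice 1 to 4 and 0 with the block. Lower Bhlhe40 went from 1 to 0 under the stricter assignment and the block, and higher Bhlhe40 from 1 to 0 with the block. The causes were not tested.

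Leaving out each mouse gave, under isoflurane, 2 to 3 classes with lower and 1 to 2 with higher Mast3, and 0 to 1 with lower Gm41414 or Tnfrsf21. Under ketamine it gave 1 to 3 for lower Mast3 and 1 to 2 for lower Tnfrsf21. The pairs differing from DG numbered 5 to 10. Each mouse has a number of its own in the labels, so no replicate number pairs mice across groups. The study's methods describe processing in batches of 4 mice drawn from the awake and isoflurane groups. The labels do not say which mice formed a batch. Runs of mouse numbers beginning at mice 1, 10, 14, 18 and 25 stood in for it in the block above. The cuts at 14 and 18 lie within an unbroken run of numbers and are given by neither the labels nor the methods. Mice 1 to 4 are 1 mouse of each awake and isoflurane group.

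Nuclei close to the assignment boundary, RNA of other classes, 4 ketamine mice and the low counts of Gm41414 outside CA1 and subicular/cortical nuclei limit these values.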

Other observations

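The 2 WT ketamine mice differed in Gm41414 in several classes. Mouse 28 was at 87.1 CPM in CA1, 7.34 CPM in DG and 11.2 CPM in CA3, where mouse 27 was at 6.96, 0.545 and 0 CPM. These levels rested on 45, 9 and 4 UMIs in mouse 28 and on 3, 1 and 0 UMIs in mouse 27. The part of CA1 RNA in the DG and CA3 values was not tested. In subicular/cortical nuclei mice 28 and 27 were close, at 81.3 and 91.6 CPM. Without mouse 28 the CA1 log2 difference of ketamine from wakefulness was −2.15 in place of −0.75.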
